A study of Arabidopsis thaliana with 10 samples.

Results

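Copia retrotransposons were followed in messenger RNA of Arabidopsis thaliana endosperm, the nutritive tissue of the seed. They were taken as every transposable element family whose name begins with ATCOPIA, and 105 of the 375 families in the deposited transposable element tables met this rule. Both paternal-excess groups had Ler mothers pollinated by tetraploid (4N) Col plants. The pollen parent was wild type for the lethal group and nrpd1 for the viable group, a mutant in the gene for the large subunit of RNA polymerase IV. Each group held 5 samples from 3 replicates, dissected by hand from seeds of crosses among several plants. The labels give 7 days after pollination for 9 samples and 8 days for the other, which belongs to lethal replicate 1, and the series' own text says 6 days. Balanced endosperm, with Ler and Col alleles, was in the allele counts the authors' sum over 5 replicates of other series. For its transposable element reads and FPKM only the group name is given, and no sample of this series is balanced. The stage and crosses of balanced endosperm were not in the labels used here. It therefore differed from the other groups in series and in parental dosage, and perhaps in stage, and these cannot be told apart in any ratio against balanced.

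Copia elements are retrotransposons with long terminal repeats. A full-length element is transcribed into a polyadenylated RNA that serves as the template for a new DNA copy and also encodes the proteins that make it. Plants keep most copies silent through DNA methylation. In the RNA-directed pathway, RNA polymerase IV and RDR2 make precursors of small RNAs, and Argonaute proteins and the methyltransferase DRM2 use these to direct methylation. MET1, CMT3 and the chromatin remodeller DDM1 act in its maintenance.

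The deposited counts hold 1 sum of reads per family and group, which add up to 56256 balanced, 196321 lethal and 183539 viable reads in transposable elements. No spread between replicates can be had from them, and every interval given here is an exact 95% interval that covers counting error only. How the q-values in the authors' deposited table were obtained, and whether replicates entered, is not stated in the sources at hand. Levels are reads per 100000 transposable element reads, and on this scale a single read weighed 1.78 in the balanced, 0.509 in the lethal and 0.545 in the viable group. Family lengths were not used, so an order of families is an order of reads and not of transcripts. No family was listed under 3 reads in any group. In the authors' deposited table, in FPKM (fragments scaled by transcript length and depth), the 12 endosperm markers summed to 370 for balanced, 1448 for lethal and 1599 for viable endosperm. HDG3 (32.1, 679 and 870 FPKM) and PHE1 (1.497, 429 and 340 FPKM) carried most of that difference in the authors' deposited table. The other 10 markers summed to 337, 340 and 389 FPKM there, with opposite moves inside these sums. IKU2 and MINI3 were at 0 in balanced, and FWA (0.509, 87.9 and 37.4 FPKM) was lowest in balanced in the authors' deposited table. ZOU (57.7, 16.4 and 31.1 FPKM) and ALE1 (63.3, 9.90 and 25.9 FPKM) were highest in balanced in the authors' deposited table. Of all 12 endosperm markers, 8 were above balanced in lethal and 10 in viable endosperm. Of the 8 embryo markers 6 were below balanced in both paternal-excess groups. All 8 summed to 115 for balanced, 73.6 for lethal and 59.2 FPKM for viable endosperm (authors' deposited table). Without ATML1, which was at 2.63, 63.2 and 23.7 FPKM, the other 7 had sums of 112, 10.4 and 35.5 FPKM (authors' deposited table). The genes set aside in these sums were chosen after their values were seen. For the 8 seed coat markers the authors' deposited table gives sums of 247, 268 and 214 FPKM. RNA of neighbouring tissues was thus present, embryo marker levels moved with the groups, and their part in the Copia levels was not tested. In such bulk samples, fewer cells of a type and less RNA per cell cannot be told apart.

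Copia families together held 6510 balanced, 32224 lethal and 25417 viable reads. These were 11.6% (interval 11.3 to 11.8%), 16.4% (16.3 to 16.6%) and 13.8% (13.7 to 14.0%) of transposable element reads. The lethal share was 1.42 times the balanced share (interval 1.38 to 1.46), and the viable share 1.20 times the balanced share (1.16 to 1.23) and 0.844 times the lethal share (0.830 to 0.858). The order of the paternal-excess groups turned on a single family, ATCOPIA78. Without it Copia families made up 11.3%, 12.8% and 13.2% of the remaining transposable element reads. With ATCOPIA78 left out of the Copia sum but kept in the total, the viable over lethal ratio was 1.06 (interval 1.04 to 1.08). Gypsy families, the other large group of retrotransposons with long terminal repeats, went from 10.8% in balanced to 15.1% in lethal and 14.0% in viable endosperm. LINE families, which lack such repeats, went from 0.505% to 2.69% and 2.57%, and Helitron DNA transposons from 1.98% to 3.62% and 3.68%.

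**Figure D1:**
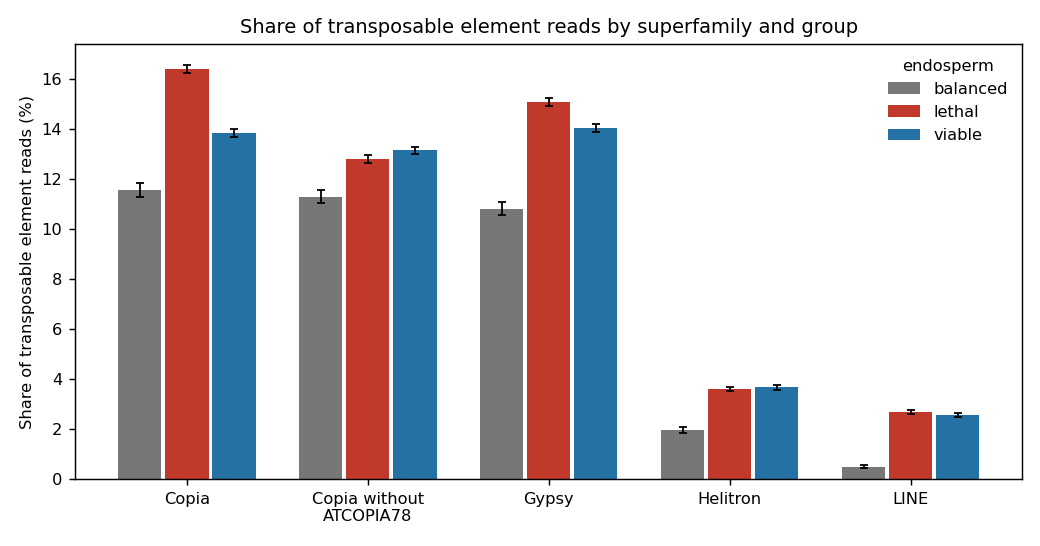
Share of transposable element reads (%, vertical axis) held by Copia families, Copia families without ATCOPIA78, and Gypsy, Helitron and LINE families in balanced, lethal and viable endosperm; bars are group sums and error bars exact 95% intervals of counting error. The lethal Copia bar at 16.4% drops to 12.8% without ATCOPIA78.

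The reads were concentrated in few families. A share of 50% of Copia reads was reached with 4 families in balanced and 5 in lethal and in viable endosperm, and 90% with 31, 30 and 30. ATCOPIA8A led in balanced endosperm with 19.8% of Copia reads and in viable endosperm with 16.9%, and ATCOPIA78 led in lethal endosperm with 25.2%. The median family had 10 balanced, 45 lethal and 36 viable reads. In balanced endosperm 49 of the 105 families had under 10 reads, against 1 in each of the other groups, so most balanced values are imprecise. The Spearman correlation of reads across the 105 families was 0.907 between lethal and viable, 0.695 between lethal and balanced and 0.720 between viable and balanced endosperm. The families are not independent replicates, and the lower values involve the group with the fewest reads.

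ATCOPIA78, known as ONSEN and known for its activation by heat, had 178 balanced, 8126 lethal and 1472 viable reads. Its levels in this order were 316, 4139 and 802 per 100000. Lethal endosperm thus stood far above the other groups, 13.1-fold over balanced (interval 11.3 to 15.3). Viable endosperm was 2.53-fold over balanced (2.17 to 2.98) and 5.16-fold below lethal endosperm (4.88 to 5.46). In the authors' deposited table the q-value was listed as 0 for lethal against balanced, 3.17e-45 for viable against balanced and 0 for viable against lethal. The gain of ATCOPIA78 in lethal over balanced endosperm was 3823 reads per 100000, set against a net Copia gain of 4842. That net is made of rises that sum to 8207 and falls that sum to -3365.

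Genes named for heat shock were looked at because ATCOPIA78 was high, so the list of 55 genes was chosen after its value was seen. Its genes were taken by symbol and synonym and not by their response to heat. By the q-values of the authors' deposited table, 22 of 52 tested genes were higher and 9 lower in lethal than balanced endosperm, against 17.5% and 16.6% of all tested genes. Among the 22 was HSP101, at 10.2 FPKM in balanced and 25.3 in lethal endosperm (authors' deposited table). Among the 9 were HSP70 (AT3G12580), at 120 and 10.6 FPKM in this order, and HSFA7A, at 3.19 and 0.196 FPKM (authors' deposited table). For viable against balanced the authors' deposited table called 14 of 51 higher and 4 lower, against 14.2% and 12.9% of all genes. Between viable and lethal endosperm, 1 of 53 was called higher (HSP70, AT3G12580) and 4 lower (HSP23.6-MITO, HSP17.6A, Hsp70b and HSFA1E) in the authors' deposited table, against 1.74% and 0.769% of all genes. HSP23.6-MITO, which encodes a small heat shock protein of mitochondria, stood at 7.16 (lethal) and 0.772 FPKM (viable) in the direct comparison of the authors' deposited table (q = 0.0102). HSFA2, which encodes a heat shock transcription factor, stood at 3.20, 1.02 and 2.89 FPKM in the authors' deposited table, in the order balanced, lethal, viable. It was called lower in lethal than balanced endosperm in the authors' deposited table (q = 0.0275). The small heat shock gene HSP17.4 had 82.9 CPM (allele reads scaled by library size) in lethal replicate 1 against 2.45 and 1.75 in lethal replicates 2 and 3 and 3.51, 1.27 and 5.39 in the viable replicates. It was high in 1 library, the one that includes the part labelled 8 days. Over the 31 heat shock genes with at least 20 allele reads in sum, lethal replicate 2 was the highest of the 6 libraries for 16 and lethal replicate 1 for 5, while lethal replicate 2 was highest for 21.2% of all genes and lethal replicate 1 for 19.7%. The deposited Copia reads are not split by replicate, so whether ATCOPIA78 was high in 1 lethal library or in all was not tested.

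Copia families in lethal and balanced endosperm were compared to ask what a tetraploid wild-type father goes with. A family was taken as higher or lower where its level differed at least 2-fold with at least 20 reads over both groups. By this rule 28 of 104 families were higher and 7 lower in lethal endosperm, against 33.3% and 8.11% of all transposable element families, so the Copia shares lay near the background. The median ratio was 1.23 over the 105 Copia families and 1.31 over all 375 families. The authors' deposited table called 27 of the 105 higher and 9 lower at a q-value under 0.05, against 28.5% and 13.6% of all families. Of the 28 higher families, 27 had an interval above 1, and 18 had under 20 balanced reads.

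**Figure D2:**
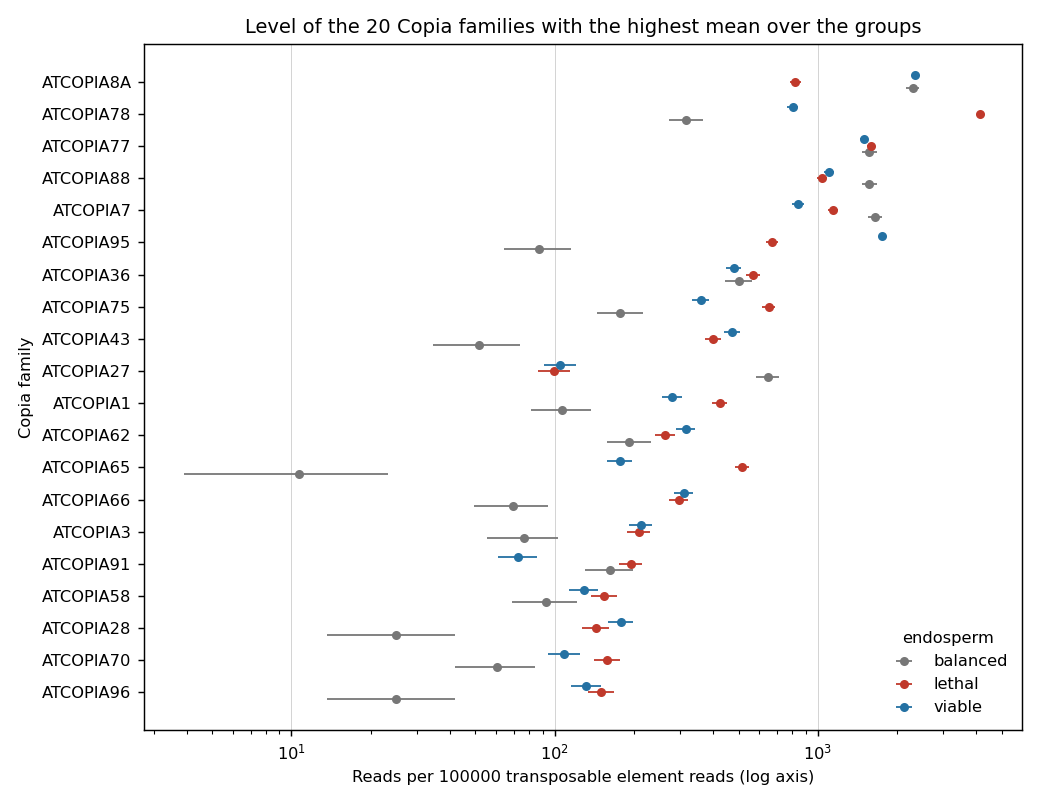
Reads per 100000 transposable element reads (horizontal log axis) of the 20 Copia families with the highest mean over the groups; points are group sums and lines exact 95% intervals of counting error. ATCOPIA78 lies at 4139 in lethal against 802 in viable endosperm, while ATCOPIA8A lies at 822 in lethal against 2347 in viable endosperm.

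ATCOPIA65 had the highest ratio, with 6 balanced, 1016 lethal and 324 viable reads. It was 48.5-fold higher in lethal than balanced endosperm (interval 22.2 to 133; q = 1.94e-95 in the authors' deposited table). Its relative by name, ATCOPIA65A, had 6, 7 and 6 reads in the same groups, so of these 2 only ATCOPIA65 was high. ATCOPIA14 had 7, 329 and 62 reads and was 13.5-fold higher in lethal endosperm (6.46 to 33.8), and ATCOPIA41 had 13, 382 and 88 reads and was 8.42-fold higher (4.87 to 16.0). Like ATCOPIA78, these families were higher in lethal than in viable endosperm. ATCOPIA43, with 29, 787 and 868 reads, was 7.78-fold higher in lethal (5.37 to 11.7) and 9.17-fold higher in viable (6.34 to 13.8) than in balanced endosperm. ATCOPIA94, ATCOPIA96, ATCOPIA49 and ATCOPIA28 were between 5.75- and 7.35-fold higher in lethal endosperm. ATCOPIA75, a family with more reads (100 in balanced, 1277 in lethal, 658 in viable), was 3.66-fold higher (2.98 to 4.53), and ATCOPIA1 with 60, 832 and 513 reads 3.97-fold higher (3.06 to 5.25).

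The lower families included some with many balanced reads. ATCOPIA27 had 363 balanced, 196 lethal and 193 viable reads. It was 6.46-fold lower in lethal than balanced endosperm (interval 5.42 to 7.73; q = 1.13e-105 in the authors' deposited table) and went from the fifth to place 27 among Copia families. ATCOPIA8A, with 1290, 1614 and 4307 reads, was 2.79-fold lower in lethal than balanced endosperm (2.59 to 3.0). Its levels were 2293, 822 and 2347 per 100000, so lethal endosperm was the low one of these 3 groups. ATCOPIA8B had 6, 34 and 21 reads and did not share the high level. ATCOPIA51 was 4.99-fold lower (3.17 to 7.91) with 50 balanced and 35 lethal reads, ATCOPIA31 3.41-fold lower (2.19 to 5.31) with 43 and 44, ATCOPIA63 2.64-fold lower (1.56 to 4.43) with 28 and 37, and ATCOPIA55 2.02-fold lower (1.19 to 3.34) with 26 and 45. The seventh, ATCOPIA9, had 9 and 13 reads and an interval that spans 1.

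Viable endosperm was set against the same balanced sums, so the comparisons of lethal and of viable endosperm share their control. By the 2-fold rule 23 of 100 families were higher and 13 lower in viable endosperm, against 28.8% and 11.2% of all families. The median ratio was 1.07 over the Copia families and 1.11 over all families. The authors' deposited table called 27 of 105 higher and 8 lower, against 28.3% and 12.3% of all families. Of the 13 lower families, 6 had an interval below 1, and 8 had under 20 balanced reads.

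ATCOPIA95 had the highest ratio in viable endosperm, with 49 balanced, 1319 lethal and 3234 viable reads. Viable endosperm was 20.2-fold over balanced (interval 15.3 to 27.4; q = 2.97e-318 in the authors' deposited table), and lethal endosperm 7.71-fold over balanced (5.80 to 10.5). The family moved from place 15 in balanced to 6 in lethal and 2 in viable endosperm. Its gain of 1675 reads per 100000 in viable over balanced endosperm stood beside a net Copia gain of 2276, with rises that sum to 4676 and falls to -2400. ATCOPIA65 was 16.6-fold (7.52 to 45.4) and ATCOPIA28 7.16-fold higher (4.21 to 13.2) in viable than balanced endosperm. ATCOPIA31A, ATCOPIA35 and ATCOPIA61 passed the 2-fold rule in viable endosperm and had ratios of 1.58, 1.77 and 1.70 in lethal endosperm, all with intervals that span 1 there. ATCOPIA27 was again lowest, 6.14-fold below balanced (5.14 to 7.35). ATCOPIA91, with 91 balanced, 382 lethal and 133 viable reads, was 2.23-fold lower in viable (1.69 to 2.94) and at a ratio of 1.20 in lethal endosperm (0.955 to 1.53).

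**Figure D3:**
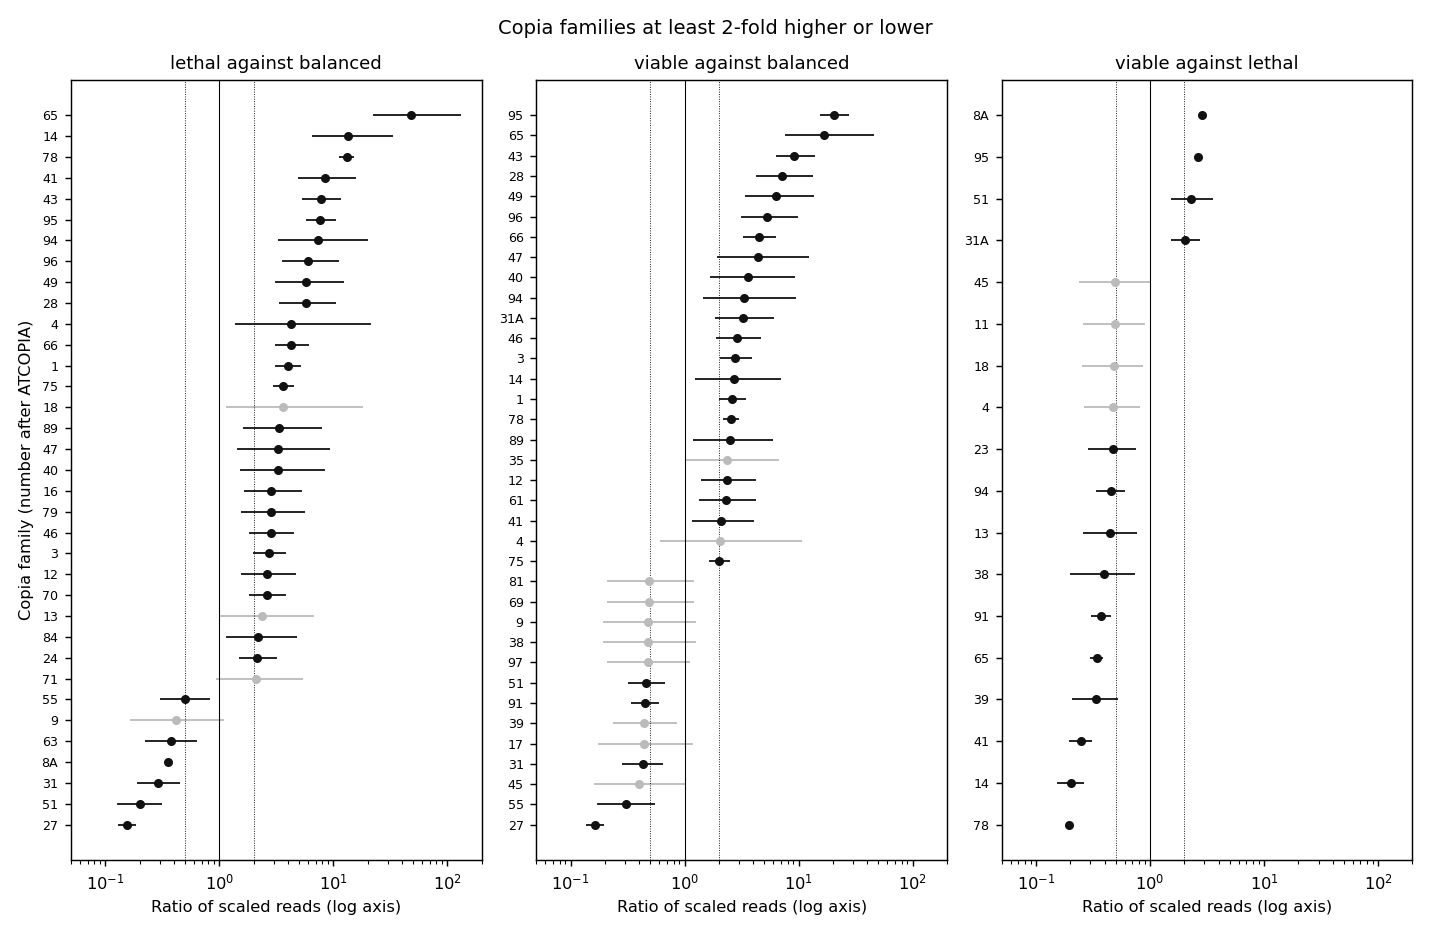
Ratio of scaled reads (horizontal log axis) with exact 95% intervals of counting error for Copia families at least 2-fold higher or lower in each comparison; black points had a q-value under 0.05 in the authors' deposited table, grey points did not, and dotted lines mark 2-fold. Viable against lethal has 4 points on the higher side and 14 on the lower side.

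Viable and lethal endosperm come from the same series and differ in the father's NRPD1 genotype. By the 2-fold rule 4 of 104 Copia families were higher and 14 lower in viable endosperm, against 5.26% and 10.8% of all families. The median ratio was 0.839 over the Copia families and 0.861 over all families. The authors' deposited table called 14 of 105 higher and 16 lower, against 18.4% and 13.9% of all families. The split moved with the scaling. With TMM factors (trimmed means over all families), with the row named Unmapped in the total, and with allele-assigned gene reads, the split was 5 higher and 7 lower each time, and without the families over 10% of a group it was 5 higher and 9 lower.

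The 4 higher families were ATCOPIA8A, ATCOPIA95, ATCOPIA51 and ATCOPIA31A. ATCOPIA8A was 2.85-fold higher in viable than lethal endosperm (interval 2.70 to 3.02; q listed as 0 in the authors' deposited table), and the ratio of viable to balanced endosperm was 1.02 (0.961 to 1.09). ATCOPIA95 was 2.62-fold higher (2.46 to 2.80) and was the single family that passed the rule upward in all 3 comparisons. ATCOPIA51, with 50, 35 and 75 reads, was 2.29-fold higher in viable than lethal endosperm (1.52 to 3.53) while below balanced in both groups. ATCOPIA31A, with 14, 77 and 147 reads, was 2.04-fold higher (1.54 to 2.73), and its namesake ATCOPIA31 had 43, 44 and 60 reads, a ratio of 1.46 (0.972 to 2.20).

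Below ATCOPIA78, the families lowest in viable against lethal endosperm were ATCOPIA14 (4.96-fold lower, 3.77 to 6.62), ATCOPIA41 (4.06-fold, 3.21 to 5.18), ATCOPIA39 (2.98-fold, 1.90 to 4.83), ATCOPIA65 (2.93-fold, 2.58 to 3.33) and ATCOPIA91 (2.69-fold, 2.20 to 3.30). ATCOPIA78, ATCOPIA65, ATCOPIA14, ATCOPIA41, ATCOPIA94 and ATCOPIA4 passed the rule as higher than balanced in both groups and as lower in viable than lethal endosperm, although the interval of ATCOPIA4 in viable against balanced spans 1. ATCOPIA91, ATCOPIA39, ATCOPIA38 and ATCOPIA45 passed the rule as lower in viable endosperm against both other groups, with intervals against balanced that span 1 for ATCOPIA38 and ATCOPIA45. ATCOPIA78 alone accounted for a difference of -3337 reads per 100000 between viable and lethal endosperm, where all families with a lower level summed to -5599 and those with a higher level to 3033.

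Several abundant families did not pass the 2-fold rule in any comparison. ATCOPIA77 had 884, 3133 and 2749 reads and levels of 1571, 1596 and 1498 per 100000 for balanced, lethal and viable endosperm. ATCOPIA36, with 282, 1113 and 881 reads, had ratios between 0.847 and 1.13. ATCOPIA88, with 883, 2040 and 2027 reads, and ATCOPIA7, with 928, 2243 and 1545, were 1.51-fold (interval 1.39 to 1.64) and 1.44-fold (1.34 to 1.56) lower in lethal than balanced endosperm, and both directions flip when reads are scaled by allele-assigned gene reads. In viable endosperm they were at 0.704 and 0.510 times the balanced level, so ATCOPIA7 fell just short of the 2-fold rule. These directions flip under that scaling too. In all, 57 of the 105 families passed the rule in no comparison.

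Among families known from work on methylation mutants, ATCOPIA93 (EVADE), which becomes active where DNA methylation is lost, had 9 balanced, 25 lethal and 23 viable reads. Its ratios were 0.796 in lethal (interval 0.359 to 1.94) and 0.783 in viable against balanced (0.349 to 1.92) and 0.984 in viable against lethal endosperm (0.534 to 1.81), so a difference was not detectable at this depth. ATCOPIA13, which has moved in ddm1 lines, had 6, 50 and 21 reads, 2.39-fold higher in lethal than balanced (1.02 to 6.82; q = 0.109 in the authors' deposited table) and 2.23-fold lower in viable than lethal endosperm (1.31 to 3.90). ATCOPIA21, likewise mobile in ddm1 lines, had 49, 106 and 81 reads and was 1.61-fold lower in lethal than balanced endosperm (1.13 to 2.28), a direction that flips under scaling by allele-assigned gene reads. ATCOPIA4, a family with a copy inside the resistance gene RPP7, had 3, 45 and 20 reads. Its lethal to balanced ratio of 4.30 (1.38 to 21.6) rests on those 3 balanced reads, the lowest count listed for any family.

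How many families counted as higher than balanced depended on the denominator. Transposable element reads were 54.1, 52.1 and 58.0 per 100000 of the table totals with the Unmapped row for balanced, lethal and viable endosperm, but 473, 863 and 983 per 100000 allele-assigned gene reads. What the Unmapped row counts is not stated in the files, and it is missing from the table of lethal against balanced, so its values were taken from the other 2 tables. Scaled by allele-assigned gene reads, all ratios against balanced shift upward, by 0.87 (lethal) and 1.05 (viable) on the log2 scale. The split became 65 higher and 2 lower in lethal and 54 higher and 1 lower in viable endosperm. Allele-assigned gene reads were 11895484, 22754013 and 18679143 in balanced, lethal and viable endosperm, beside Unmapped rows of 103951803, 376786993 and 316054977. They were thus more frequent in balanced endosperm relative to that row, and their part in the upward shift was not tested. With the Unmapped row in the total, viable against balanced gave 25 higher and 8 lower. TMM factors shifted the ratios by -0.34 in lethal against balanced, -0.06 in viable against balanced and 0.28 in viable against lethal. Outside Copia, ATENSPM1 took 0.825%, 11.6% and 17.3% of transposable element reads in balanced, lethal and viable endosperm and Sadhu6-1 20.6%, 8.33% and 7.88%, so a pair of families made up an unequal part of the denominator. Under all 6 scalings, 24 of the 28 higher families in lethal and 20 of the 23 in viable against balanced stayed at least 2-fold higher, ATCOPIA78, ATCOPIA65, ATCOPIA95 and ATCOPIA43 among them. On the lower side ATCOPIA27 and ATCOPIA51 stayed in lethal and ATCOPIA27 in viable endosperm. Between viable and lethal endosperm, ATCOPIA8A, ATCOPIA95 and ATCOPIA51 stayed higher and ATCOPIA78, ATCOPIA14, ATCOPIA41, ATCOPIA39, ATCOPIA65, ATCOPIA91 and ATCOPIA38 stayed lower.

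**Figure D4:**
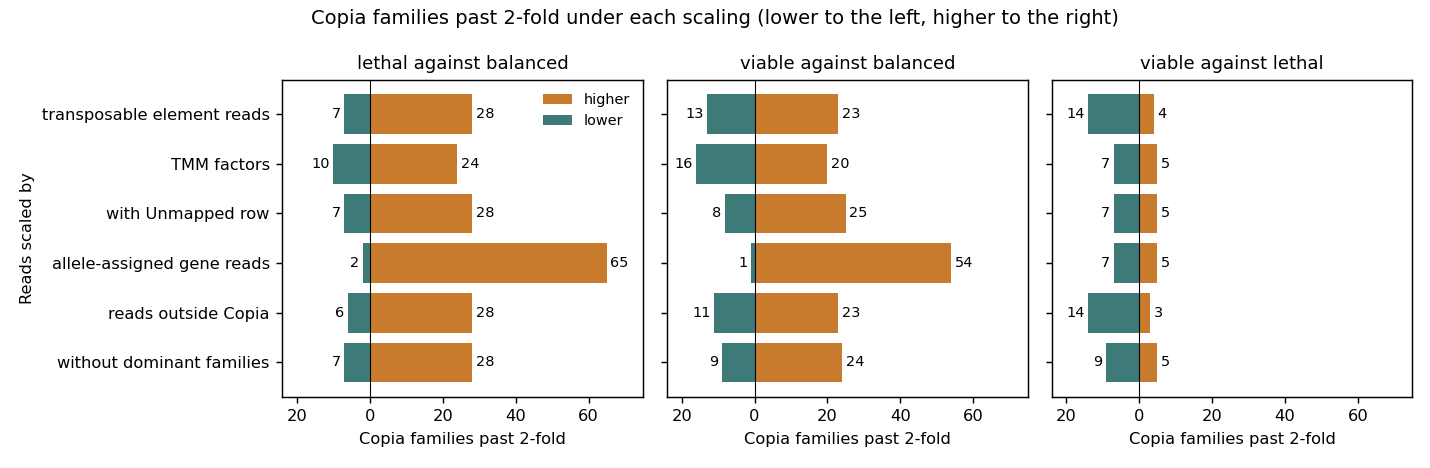
Number of Copia families at least 2-fold higher (right of 0) or lower (left of 0) in each comparison, for reads scaled by transposable element reads and by 5 other totals. Scaling by allele-assigned gene reads gives 65 higher in lethal and 54 in viable against balanced, where the other totals give 20 to 28.

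Genes of the silencing pathways were read from the authors' gene table, in a list of 37 genes that were all tested. NRPD1 itself, which the maternal genome still provides in both crosses, had 30.5 to 139 CPM in lethal and 19.8 to 107 CPM in viable libraries, ranges that overlap, so its level is no check of the labels. By the q-values of the authors' deposited table, 9 silencing genes were higher and 8 lower in lethal than balanced endosperm, and 8 were higher and 4 lower in viable than balanced endosperm, beside the shares of all genes given with the heat shock list. Among maintenance genes CMT3, MET1 and DDM1 were called higher in both comparisons. CMT3, a methyltransferase for CHG sites, stood at 4.34, 23.4 and 20.7 FPKM in the authors' deposited table, in the order balanced, lethal, viable, and the CG methyltransferase gene MET1 at 2.20, 5.53 and 5.78 FPKM. DDM1 was at 7.08, 13.9 and 15.4 FPKM in the authors' deposited table, and AGO9, an Argonaute gene, at 1.92, 6.48 and 8.05 FPKM. Allele reads did not show the AGO9 rise, with 29.2 CPM in balanced. Lethal libraries had 11.9, 36.2 and 18.3 CPM of AGO9 and viable libraries 27.4, 33.6 and 23.9. MET1 had 1.85 CPM in balanced, 1.13, 7.75 and 1.62 in lethal and 1.93, 6.98 and 0 in viable libraries. Its rise in allele reads thus lay mainly in replicate 2. CMT3 was above its balanced 44.9 CPM in every library.

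Genes of the RNA-directed pathway stood on both sides. NRPD1 was called higher than balanced in lethal (q = 0.00536) and viable endosperm (q = 0.00877), at 2.33, 6.96 and 5.71 FPKM, in the authors' deposited table. Its allele reads did not show this rise clearly. Balanced endosperm had 47.8 CPM, against 35.6, 139 and 30.5 in lethal and 57.1, 107 and 19.8 in viable libraries. HEN1, a small RNA methyltransferase gene, at 3.31, 8.70 and 9.47 FPKM, and SUVH9, a gene of the SUVH family that acts in recruiting RNA polymerase V, at 8.26, 22.4 and 19.1 FPKM, were also called higher in both groups in the authors' deposited table. In the same order DRM2 stood at 26.8, 7.32 and 12.6 FPKM in the authors' deposited table, NRPD2, a subunit gene of RNA polymerases IV and V, at 6.33, 1.75 and 2.71 FPKM, and CLSY1, a chromatin remodeller gene of the same pathway, at 15.5, 4.96 and 7.06 FPKM. All 3 were called lower in both comparisons with balanced. AGO4 was at 88.5, 30.5 and 48.9 FPKM and was called in lethal (q = 0.00651) but not in viable endosperm (q = 0.153) in the authors' deposited table. A difference between these effects was not tested as such. Between viable and lethal endosperm 2 of the 37 were called higher in viable and 0 lower, against 1.74% and 0.769% of all tested genes. In the direct comparison of the authors' deposited table, RDR2 went from 1.48 FPKM (lethal) to 4.43 (viable, q = 0.0219) and ROS1, a DNA demethylase gene, from 3.42 to 9.45 (q = 0.0128). The relation of these genes to the Copia levels was not tested.

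**Figure D5:**
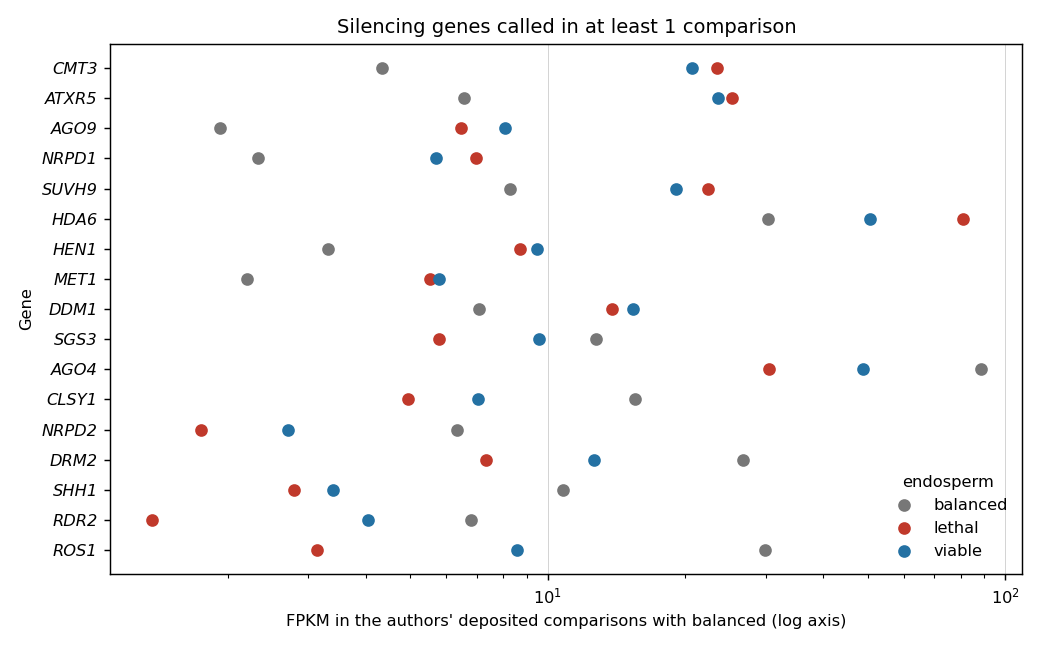
FPKM (horizontal log axis) in the authors' deposited comparisons with balanced of the 17 silencing genes called in at least 1 comparison; each point is a group value with no replicate error. CMT3, ATXR5 and AGO9 lie higher in both paternal-excess groups than in balanced, and ROS1, RDR2, SHH1 and DRM2 lie lower.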

How the data were processed

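RNA of endosperm was sequenced from 10 samples in 2 groups, and the balanced group entered only as the authors' pooled values. The submitters' processing notes name Trim Galore, FastQC, TopHat, Bowtie, Cuffdiff and the TAIR10 genome, and for the transposable element tables the aligner, annotation and test are not stated there. The authors deposited 1 read count per family and group, with all replicates added together. Per the file headers the same tables hold a log2 ratio and a p-value and q-value, and from the values the log2 ratio was shifted by a constant per table that equals the log2 ratio of the Unmapped rows. The authors' gene tables hold FPKM per group, and their allele tables hold counts per gene and replicate, of which 40 columns of single balanced replicates in 2 tables were not used.

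From these, reads were divided by the group's transposable element reads without the Unmapped row. A ratio has an exact Clopper-Pearson 95% interval from the split of its reads. It was tried on simulated reads with counting error only, which cannot show how it does under spread between replicates. Families named are the 10 with most reads, the 10 highest and lowest ratios of each comparison among those called, and 5 known families. The direction of a call by q-value was taken from the scaled reads and had the sign of the authors' log2 ratio in every case. The members and lists were chosen with earlier results of these data known, and the heat shock list was taken by symbol and synonym from the TAIR10.1 RefSeq table after ATCOPIA78 was seen. No gene in the files or that table is annotated as Copia, so the planned edgeR tests of Copia genes were not run, and edgeR 4.0.16 gave only the TMM factors. Sequences and positions of the families were not analysed here. Python 3.11.15, scipy 1.17.1 and R 4.3.3 were used.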

Additional observations from a re-analysis of the deposited data

How the results depend on the processing

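Of 468 recalculated ratios of the 39 named families, 7 that had a call by the 2-fold rule or by q-value changed direction. Of the rest, 375 stayed within the interval and 86 moved outside it. Ratios without a call that crossed 1 were not counted as a change of direction. With allele-assigned gene reads ATCOPIA21 became 1.13 and 1.05, ATCOPIA7 1.26 and 1.06, and ATCOPIA88 1.21 and 1.46 in lethal and viable against balanced, and with TMM factors ATCOPIA8A became 0.979 in viable against balanced. That scaling by gene reads gave 65 families higher and 2 lower in lethal, and 54 higher and 1 lower in viable against balanced. In viable against lethal, 7 families were lower with TMM factors, with the Unmapped row and with gene reads, and 9 when families over 10% of a group were left out of the total, an alternative chosen after seeing the data. With the Unmapped row in the total 8 families were lower in viable against balanced, and with a minimum of 50 reads 5. A threshold of 1.5-fold gave 43 higher and 12 lower in lethal against balanced, 22 lower in viable against balanced and 32 lower in viable against lethal. A threshold of 3-fold gave 18 higher and 3 lower, 11 higher and 2 lower, and 0 higher and 3 lower in the 3 comparisons. At a q-value under 0.01 in the authors' deposited table, 9 were higher and 10 lower in viable against lethal. Relative to table totals with the Unmapped row, Copia was 0.00626%, 0.00855% and 0.00804% in balanced, lethal and viable endosperm, and without ATCOPIA78 11.3%, 12.8% and 13.2% of the remaining transposable element reads. The silencing and heat shock calls at a q-value under 0.01 are 13, 9 and 0, and 17, 12 and 1, in the same order of comparisons, in the authors' deposited table. Fewer families or reads follow from stricter limits by construction, and the cause of the other changes was not tested. No paired analysis was possible because the family reads are summed over replicates, and for the same reason no replicate could be left out. Depth is least in balanced endosperm, where 49 families have under 10 reads.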

Other observations

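Some rows with Copia in a shorter name, or known Copia elements named otherwise, fall outside the name rule. ATCOPI1 had 35 balanced, 20 lethal and 59 viable reads, 3.16-fold higher in viable than lethal endosperm (interval 1.87 to 5.53; q = 1.27e-06 in the authors' deposited table) and at 0.164 times the balanced level in lethal endosperm (0.0896 to 0.292). Copia-2 had 21, 24 and 21 reads, at 0.327 times (0.175 to 0.619) and 0.307 times (0.159 to 0.590) the balanced level in lethal and viable endosperm. ATRE1 had 26, 91 and 44 reads and was at 0.517 times the lethal level in viable endosperm (0.352 to 0.749). ENDOVIR1 had 34, 154 and 111 reads, with intervals of the ratio to balanced that span 1 in both groups.

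Families that share a number differed in level. ATCOPIA38 had 9, 38 and 14 reads in balanced, lethal and viable endosperm, ATCOPIA38A 3, 19 and 15, and ATCOPIA38B 6, 28 and 30. ATCOPIA18 had 3, 38 and 17 reads and ATCOPIA18A 14, 50 and 67. ATCOPIA69 had 10, 25 and 16 reads and ATCOPIA69A 13, 47 and 49. Per 100000 reads ATCOPIA18 was at 19.4 in lethal and 9.26 in viable endosperm and ATCOPIA18A at 25.5 and 36.5. ATCOPIA69 was at 12.7 and 8.72 and ATCOPIA69A at 23.9 and 26.7, and differences this small rest on few reads.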
